A study of Homo sapiens with 36 samples.

Results

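7 noncoding RNA genes with a place in B-cell leukaemia were followed through 3 drug-treated leukaemia cell lines: the microRNA host genes MIR155HG and MIR17HG, the 13q14 genes DLEU1 and DLEU2, and the long noncoding RNAs PVT1, NEAT1 and MALAT1. They were taken by symbol from the 37549 gene symbols of the count table, and each was present as a gene entry. All 7 passed the filter on low counts in every comparison. Their levels in single libraries ran from 27 counts (MIR17HG) to 212605 counts (MALAT1).

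Total RNA depleted of rRNA was sequenced from 36 libraries, 3 in each of 12 groups. MEC1, which carries mutated p53, was exposed for 48 h, JVM2 for 72 h and EHEB for 96 h, and the latter pair have wild-type p53. All are established human B-cell lines, and no group carries an engineered change. Each line was given DMSO (the solvent control), 50 µM fludarabine (a purine analogue that blocks DNA synthesis), 5 µM ibrutinib (a covalent inhibitor of Bruton tyrosine kinase) or 10 µM idelalisib (an inhibitor of the delta isoform of phosphoinositide 3-kinase). A line and its exposure time cannot be told apart. Nothing states that the 3 libraries of a group came from separate cultures, so p-values measure the spread between these libraries, which may be technical. Libraries of a group are named A, B and C in the order of the numbers in their labels, and values are given in that order. DMSO and fludarabine libraries have neighbouring numbers and those of the inhibitors lie far from them, so any difference between the 2 ranges of numbers cannot be told apart from an inhibitor effect, whereas idelalisib and ibrutinib lie in 1 range.

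A microRNA host gene is transcribed as a long RNA from which hairpins are cut, and the mature microRNA then lowers the mRNAs whose 3' end pairs with its seed. MIR155HG (also called BIC) carries miR-155, a microRNA of activated B cells that is abundant in many lymphomas. MIR17HG carries the miR-17-92 cluster, which MYC and E2F factors switch on. DLEU2 carries miR-15a and miR-16 within introns, in the 13q14 region whose deletion is the commonest genetic lesion of chronic lymphocytic leukaemia, and DLEU1 lies beside it in the opposite direction. NEAT1 is the scaffold of paraspeckles, MALAT1 is an abundant RNA of nuclear speckles, and PVT1 is the neighbour of MYC.

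The mature microRNAs show what the host genes encode. They are grouped here by the seed (bases 2 to 8, in capitals), because members with 1 seed share most of their targets, and the letters come from RefSeq (GRCh38.p14). The miR-155 hairpin arm lies at chr21:25573983-25574006, plus strand, in an exon of both annotated MIR155HG transcripts.
miR-155-5p: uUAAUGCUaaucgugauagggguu
The miR-17-92 arms lie within chr13:91350618-91351382, plus strand, in an exon of 3 and an intron of 8 of the 11 MIR17HG transcripts that span them. 1 arm of each hairpin is shown, and these arms fall into 4 seeds.
miR-17-5p: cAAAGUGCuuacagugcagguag
miR-20a-5p: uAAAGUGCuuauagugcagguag
miR-18a-5p: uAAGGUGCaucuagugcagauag
miR-19a-3p: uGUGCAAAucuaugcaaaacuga
miR-19b-3p: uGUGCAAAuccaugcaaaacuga
miR-92a-3p: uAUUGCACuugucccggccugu
The 5p arms of miR-15a and miR-16, shown for DLEU2, lie within chr13:50049027-50049188, minus strand, in an intron of all 15 transcripts that span them, and both have the same seed.
miR-15a-5p: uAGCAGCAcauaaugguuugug
miR-16-5p: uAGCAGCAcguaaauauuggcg
Mature microRNAs were not measured: the hairpin genes in the table held 0 to 45 counts in a library, and MIR155 held 1 count in each of the 36. The values below are those of the host RNA.

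Positions of the gene bodies come from GENCODE release 44, on GRCh38, the build the reads were aligned to. MIR155HG spans chr21:25561810-25575168 on the plus strand, with 1776 bases of exon. MIR17HG spans chr13:91347686-91397592 on the plus strand. DLEU2 spans chr13:49956670-50125720 on the minus strand and DLEU1 chr13:50082169-50906856 on the plus strand, and although their bodies overlap they share no exon base. NEAT1 (chr11:65422774-65445540) and MALAT1 (chr11:65497640-65508073) are plus-strand neighbours. PVT1 spans chr8:127794526-128187101 on the plus strand and has 190 annotated transcripts. Strand of the reads is not given in the sources used here, so antisense reads cannot be told apart: TALAM1, antisense to MALAT1, covers 77.83% of its exon bases and is not an entry of the table, ENSG00000292285, antisense to MIR17HG, covers 20.47% of its exon bases and is not an entry either, and TRIM13 shares 690 exon bases with DLEU2.

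Depth was 26590705 to 53538925 counts per library. Over 36 pairs of libraries of 1 group, the chi-square per degree of freedom was 27.2 to 53.6, so replicates differed by more than counting noise and none was a copy of another. 6 B-cell markers were found in every library with a summed level of 640 to 1754 CPM (counts over the scaled total of the library, with TMM factors of all libraries), while summed markers of T cells, myeloid cells and erythroid cells were at most 5.55, 5.88 and 0.453 CPM. The share of counts from 13 protein genes and 2 rRNAs of mitochondria was 0.388 to 0.598% in MEC1 with DMSO and 0.671 to 1.05% with the drugs, 0.413 to 0.460% and 0.671 to 1.15% in JVM2, and 1.26 to 1.65% and 1.44 to 2.65% in EHEB. The share of 5 small RNAs (RN7SL1, RN7SL2, RN7SK, RMRP and RPPH1) was 17.0 to 19.2% in MEC1 with idelalisib and 8.46 to 10.7% in MEC1 with DMSO. The part of these shares in the results below was not tested.

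The effect of each kinase inhibitor differed between the lines, each with its own exposure time, for 6 of the 7 genes. Among all genes this share was 33.6% for ibrutinib and 45.7% for idelalisib. The fludarabine effect differed for 2 of the 7, beside 39.1% of all genes. With the kinase inhibitors, MIR155HG rose 8.63-fold and 6.58-fold in MEC1 and 2.64-fold and 3.70-fold in JVM2, and the calls of MIR17HG, DLEU2 and PVT1 with these inhibitors were all increases in MEC1. DLEU1 fell with fludarabine in all 3 lines. NEAT1 was called in JVM2 only, and MALAT1 was highest in drug-treated EHEB. In such bulk samples fewer cells of a type and less RNA per cell cannot be told apart.

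A gene was called changed where edgeR's quasi-likelihood F-test, with Benjamini-Hochberg adjustment over all genes tested, gave an adjusted p under 0.05 ("edgeR adjusted p" below). Over the 9 comparisons of a drug with DMSO, 31 of the 63 tests of the 7 genes were called, 16 higher and 15 lower, which is 49.2%, against 39.7% of the tests of all genes. The comparisons within a line share their DMSO libraries. MIR155HG was called in 8 of the 9 comparisons, PVT1 in 6, DLEU1 in 5, MALAT1 in 4, MIR17HG and DLEU2 in 3 each and NEAT1 in 2. The 5 calls of DLEU1 were all decreases and the 4 of MALAT1 all increases, whereas the calls of every other member went both ways.

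In MEC1, fludarabine lowered 4 of the 7 genes and raised 0, where 22.7% of all genes tested were lower and 21.2% higher. Ibrutinib raised 4 and lowered 0 (23.7% higher and 23.9% lower among all genes), and idelalisib raised 5 and lowered 0 (27.6% and 27.4%). In JVM2, fludarabine raised 1 and lowered 2 (23.9% and 23.3%), ibrutinib raised 1 and lowered 2 (14.5% and 15%), and idelalisib raised 1 and lowered 2 (21.6% and 22.6%). In EHEB, fludarabine raised 1 and lowered 2 (18.4% and 19.2%), ibrutinib raised 2 and lowered 0 (8.5% and 11.2%), and idelalisib raised 1 and lowered 3 (15.1% and 18.2%). In MEC1 with an inhibitor the members called all went up, and the share of members called higher was above the background there. With 7 members, most of these shares differ from the background by 1 or 2 genes.

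Between lines with DMSO, 4 of the 7 were called between MEC1 and JVM2 (1 higher and 3 lower in MEC1, beside 30.1% and 33.7% of all genes), 4 between MEC1 and EHEB (1 higher and 3 lower in MEC1, beside 31.6% and 35.8%) and 5 between EHEB and JVM2 (2 higher and 3 lower in EHEB, beside 29.9% and 29.6%). MIR17HG was the member higher in MEC1 in both of its pairs. Whether a drug effect differed between the lines was tested by an interaction term in a fit of 18 libraries (DMSO and 1 drug, all lines). That of fludarabine was called for 2 members (39.1% of all genes), that of ibrutinib for 6 (33.6%) and that of idelalisib for 6 (45.7%).

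How all genes split into higher and lower depends on the scaling. Without TMM factors, the share of calls that were higher went from 48.4% to 74.1% with fludarabine in MEC1, from 50.6% to 69.1% with fludarabine in JVM2, from 49.1% to 62.2% with ibrutinib in JVM2 and from 48.8% to 59.5% with idelalisib in JVM2. In EHEB it went from 48.9% to 61.8% with fludarabine, from 43.1% to 65.4% with ibrutinib and from 45.3% to 59.6% with idelalisib, and for idelalisib against ibrutinib in MEC1 from 39.1% to 11.3%. The median of all genes moved by 0.25 (log2) with fludarabine in MEC1, by 0.20 with fludarabine in JVM2, by −0.17 for idelalisib against ibrutinib in MEC1, and by at most 0.12 elsewhere. No called change of the 7 genes turned its direction under this scaling.

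**Figure D1:**
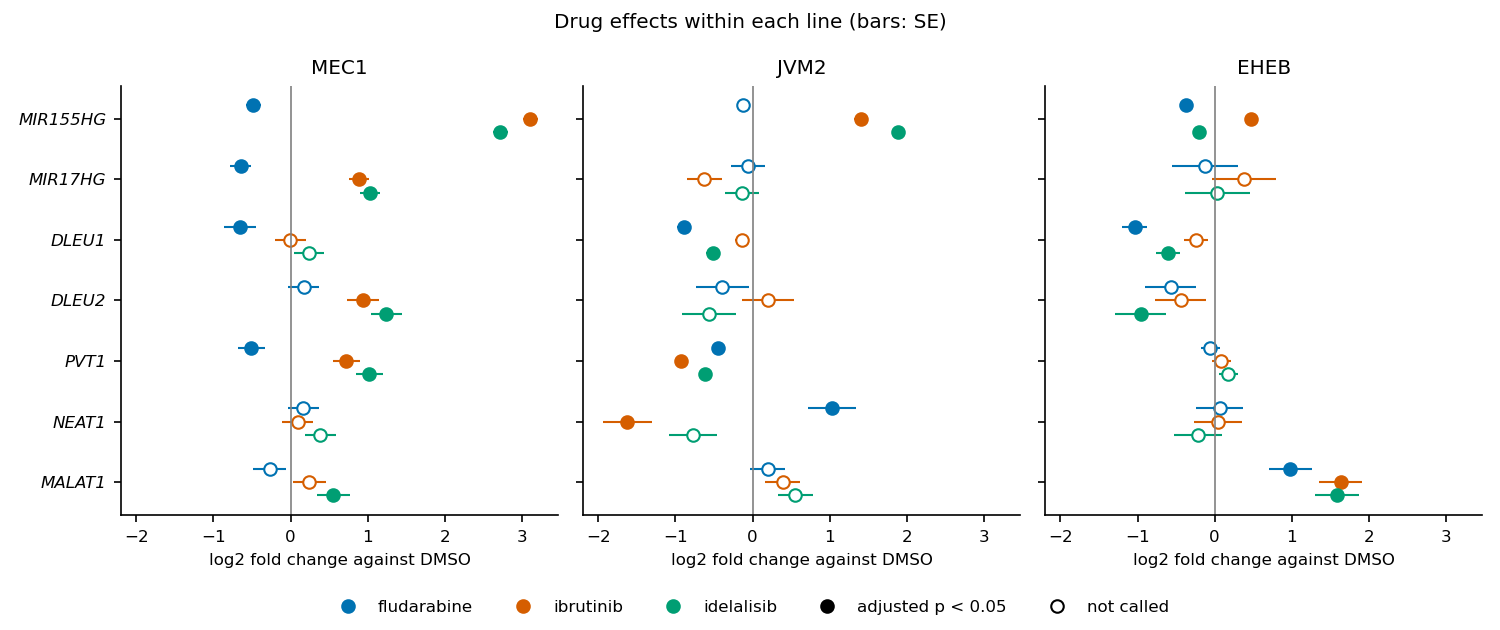
Log2 fold change of each gene in the 9 comparisons with DMSO, with bars of the standard error; filled points are called at an adjusted p under 0.05 by edgeR. MIR155HG in MEC1 lies at 3.11 with ibrutinib and 2.72 with idelalisib, and the PVT1 points lie above 0 in MEC1 and below 0 in JVM2 with both inhibitors.

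MIR155HG, the host of miR-155, had the widest range of the microRNA hosts, 15.3 to 409 CPM over the 36 libraries. With DMSO it was at 23.9, 24.3 and 24.2 CPM in MEC1. In JVM2 it was at 98.8, 86.9 and 89.6 CPM, and in EHEB at 294, 281.5 and 285.8 CPM. The 3 lines did not overlap: MEC1 was lowest and EHEB highest. EHEB was 3.16-fold above JVM2 (edgeR adjusted p = 5.7e-08), and MEC1 was 3.84-fold below JVM2 (edgeR adjusted p = 1.3e-08) and 12.1-fold below EHEB (edgeR adjusted p = 1.2e-09).

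Ibrutinib brought MIR155HG in MEC1 to 198, 200 and 207 CPM. Idelalisib brought it to 153, 137 and 167 CPM. Every inhibitor library was thus more than 100 CPM above every DMSO library, with log2 fold changes of 3.11 ± 0.098 (SE, n = 3 per group; edgeR adjusted p = 7.6e-09) and 2.72 ± 0.096 (edgeR adjusted p = 1.7e-08). In JVM2 the values were 251, 239.4 and 242 CPM with ibrutinib (log2 fold change 1.40 ± 0.087, edgeR adjusted p = 2.5e-06). With idelalisib they were 327, 339 and 357 CPM (1.89 ± 0.088, edgeR adjusted p = 7.1e-08). In EHEB the inhibitors parted: ibrutinib gave 409, 395 and 386 CPM, above all DMSO libraries (0.46 ± 0.038, edgeR adjusted p = 1.9e-05). Idelalisib gave 248, 251 and 250 CPM, below all of them (−0.21 ± 0.038, edgeR adjusted p = 0.0015), although without TMM factors this last change was −0.11 with an edgeR adjusted p of 0.11. The 7 alternatives to the ibrutinib and idelalisib fits in MEC1 and JVM2 all kept the call of MIR155HG, as did each fit with 1 library left out.

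In MEC1 and JVM2, fludarabine moved MIR155HG less than either inhibitor did, and its calls, in MEC1 and EHEB, were decreases. In EHEB its log2 fold change (−0.38) was larger in size than that with idelalisib (−0.21). With fludarabine in MEC1, MIR155HG was at 15.3, 19.6 and 18.1 CPM, all below DMSO (1.40-fold lower, edgeR adjusted p = 0.0014), a log2 fold change of −0.48 that was −0.23 without TMM factors (edgeR adjusted p = 0.035). In EHEB it was at 215, 221 and 222 CPM, again all below DMSO (1.299-fold lower, edgeR adjusted p = 1.6e-05). In JVM2 it was at 76.0, 78.9 and 96.4 CPM, which overlaps DMSO (log2 fold change −0.12, edgeR adjusted p = 0.28). Without JVM2 fludarabine library C, the highest of the 3, this fall was −0.24 with an edgeR adjusted p of 0.010, and without TMM factors the value was 0.08.

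The effect of each inhibitor on MIR155HG differed between the lines. The interaction gave an edgeR adjusted p of 2.8e-11 for ibrutinib and 3.7e-11 for idelalisib. For ibrutinib the order of the effects was MEC1, JVM2, EHEB, the reverse of the order of the DMSO levels. The groups with an inhibitor spanned 137 to 409 CPM over the 3 lines, and those with DMSO 23.9 to 294 CPM. For fludarabine the interaction of MIR155HG was not called (edgeR adjusted p = 0.097), although it was in the joint fit (edgeR adjusted p = 0.045), without MEC1 fludarabine library B (0.42, edgeR adjusted p = 0.049) and without JVM2 fludarabine library A (0.41, edgeR adjusted p = 0.046).

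Idelalisib and ibrutinib, each at 1 dose and the same exposure time within a line, were also compared directly, with 7 members tested in each of 3 lines. MIR155HG was the member called in all 3. It was lower with idelalisib in MEC1 (−0.39 ± 0.090, edgeR adjusted p = 0.014) and in EHEB (−0.67 ± 0.038, edgeR adjusted p = 2.3e-06), and higher with idelalisib in JVM2 (0.49 ± 0.086, edgeR adjusted p = 0.0028). In MEC1 it was the 1 member called (6.01% of all genes were higher and 9.37% lower), as in EHEB (6.77% and 9.09%). In JVM2, DLEU1 was also lower (−0.38 ± 0.087, edgeR adjusted p = 0.012) and PVT1 higher (0.31 ± 0.066, edgeR adjusted p = 0.0074), against 8.21% of all genes higher and 10.5% lower. For the members not called, intervals were wide in part: MALAT1 in EHEB had a difference of −0.05 with a 95% confidence interval of −0.66 to 0.56. In JVM2, NEAT1 was also called higher by DESeq2 (0.86, DESeq2 adjusted p = 0.019) and in the fit of 6 libraries (0.85, edgeR adjusted p = 0.037). Without MEC1 ibrutinib library B, PVT1 was also called in MEC1 (0.59, edgeR adjusted p = 0.0021), and without JVM2 idelalisib library A, DLEU2 was called in JVM2 (−1.25, edgeR adjusted p = 0.026). In the joint fit of 36 libraries DLEU1 (edgeR adjusted p = 0.092) and PVT1 (edgeR adjusted p = 0.11) were not called in JVM2.

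The promoter of MIR155HG is shown because factors of the AP-1 and NF-kB families are its known activators. The window from 250 before to 50 after the RefSeq start (chr21:25561895-25562194, plus strand, GRCh38.p14) hold an AP-1 motif (TGANTCA) 60 bases before the start and a TATA box (TATAAA) 44 bases before it, both in capitals.
MIR155HG promoter: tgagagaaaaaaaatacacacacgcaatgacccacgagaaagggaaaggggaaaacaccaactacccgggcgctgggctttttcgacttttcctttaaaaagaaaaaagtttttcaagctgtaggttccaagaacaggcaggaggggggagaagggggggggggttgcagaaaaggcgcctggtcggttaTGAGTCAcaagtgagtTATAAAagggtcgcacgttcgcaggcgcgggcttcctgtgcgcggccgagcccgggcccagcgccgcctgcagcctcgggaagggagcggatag
Among 35116 promoters of this length, 7.71% hold this AP-1 motif and 11.5% this TATA box on either strand. The letters of an NF-kB motif (GGG, any 2 bases and TTTCC, in 1.91% of promoters), an E-box (CACGTG, 7.26%) and an E2F motif (TTTNNCGC, 6.89%) are not in this window. The motifs do not overlap each other.

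16 genes listed as activators of MIR155HG and MIR17HG (MYC, MYB, E2F, NF-kB and AP-1 members) were all tested. For this and the later lists, the shares of all genes called in each comparison are those given above. In MEC1 they were 23.7% higher and 23.9% lower with ibrutinib, and 27.6% and 27.4% with idelalisib. In MEC1, where MIR155HG rose with both inhibitors, 1 activator rose and 11 fell with ibrutinib (median log2 fold change −0.48, against 0.06 over all genes), and 0 rose and 13 fell with idelalisib (median −0.86, against 0.08). In JVM2, 4 rose and 4 fell with ibrutinib and 3 rose and 5 fell with idelalisib. FOSL2, an AP-1 subunit, fell by 1.94 on the log2 scale with ibrutinib and by 2.06 with idelalisib in MEC1, and by 1.83 and 2.32 in JVM2. JUNB, another AP-1 subunit, fell with both inhibitors in all 3 lines, by 0.26 to 0.96 on the log2 scale, and rose with fludarabine in all 3, by 0.24 to 0.79. E2F2, a cell-cycle activator, fell in 7 of the 9 comparisons and rose in 2. MYB, a factor of immature blood cells, fell with both inhibitors in MEC1 (−0.94 and −0.90) and rose with both in JVM2 (0.57 and 0.91) and EHEB (1.18 and 1.505).

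Known targets of miR-155 were listed by hand, and 15 of the 16 were tested. In MEC1, 8 rose and 3 fell with ibrutinib (median 0.26) and 7 rose and 4 fell with idelalisib (median 0.12), beside medians over all genes of 0.06 and 0.08. In JVM2, where MIR155HG also rose with both inhibitors, 4 rose and 4 fell with ibrutinib (median 0.035, against −0.0014). With idelalisib 7 rose and 3 fell there (median 0.21, against 0.03). IKBKE, a kinase of interferon signalling, rose in 8 of 9 comparisons, and TP53INP1, a p53 target gene, rose in 8 of 9 and fell with ibrutinib in JVM2 (−0.30). JARID2, a partner of the polycomb complex, fell in 6 of 9, among them ibrutinib (−0.59) and idelalisib (−0.65) in MEC1. The targets named here thus moved both with and against the host RNA.

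**Figure D2:**
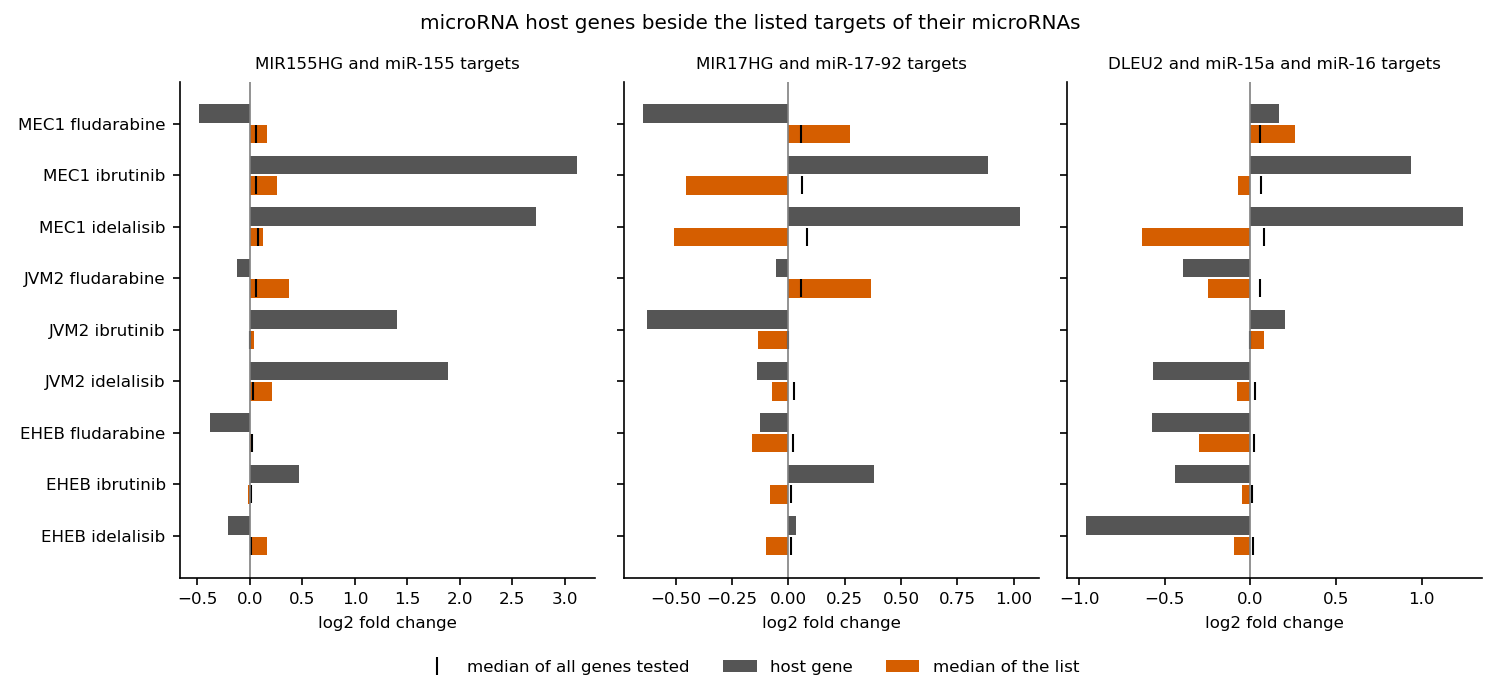
Log2 fold change of 3 microRNA host genes (dark bars) beside the median of the listed targets of their microRNAs (orange bars) in the 9 comparisons with DMSO, with the median of all genes tested as a black tick. In MEC1 with idelalisib, MIR17HG lies at 1.03 and its target list at −0.51, while MIR155HG lies at 2.72 and its target list at 0.12.

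MIR17HG, the host of the miR-17-92 cluster, was highest in MEC1. With DMSO it was at 7.41, 7.48 and 7.82 CPM in MEC1, at 4.196, 3.16 and 3.003 CPM in JVM2 and at 1.86, 1.16 and 1.24 CPM in EHEB. The 3 lines did not overlap. MEC1 was 2.17-fold above JVM2 (edgeR adjusted p = 0.0013) and 5.22-fold above EHEB (edgeR adjusted p = 1.3e-05), and EHEB was 2.40-fold below JVM2 (edgeR adjusted p = 0.00099). The order of the lines was the reverse of that of MIR155HG. The EHEB libraries held 27 to 90 counts of MIR17HG, and with ibrutinib the 95% confidence interval of the log2 fold change was −0.54 to 1.305.

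In MEC1, MIR17HG was at 12.6, 14.2 and 13.9 CPM with ibrutinib. It was at 16.5, 15.8 and 11.9 CPM with idelalisib. All 6 lay above the DMSO libraries, with rises of 1.85-fold (edgeR adjusted p = 0.00023) and 2.04-fold (edgeR adjusted p = 5.4e-05). With fludarabine it was at 4.47, 5.51 and 4.81 CPM, all below DMSO (1.57-fold lower, edgeR adjusted p = 0.0025), a log2 fold change of −0.65 that was −0.40 without TMM factors (edgeR adjusted p = 0.044) and not called in the joint fit of 36 libraries (edgeR adjusted p = 0.078). In JVM2 none of the drugs gave a call. Ibrutinib gave 2.75, 1.58 and 2.39 CPM there, all below DMSO, with a log2 fold change of −0.63 and an edgeR adjusted p of 0.059, and DESeq2 called it (DESeq2 adjusted p = 0.039). Without ibrutinib library A the fall with ibrutinib was −0.79 (edgeR adjusted p = 0.042). The effect of ibrutinib on MIR17HG differed between the lines (interaction, edgeR adjusted p = 0.015), as did that of idelalisib (edgeR adjusted p = 0.020), the latter not without MEC1 idelalisib library A (1.03, edgeR adjusted p = 0.057) or B (1.06, edgeR adjusted p = 0.051) and not without TMM factors (0.98, edgeR adjusted p = 0.051).

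12 listed targets of the miR-17-92 cluster were tested in MEC1 and EHEB and 11 in JVM2; E2F1 is also on the activator list. In MEC1, where MIR17HG rose, 2 targets rose and 7 fell with ibrutinib (median −0.45, against 0.06 over all genes) and 0 rose and 7 fell with idelalisib (median −0.51, against 0.08). With fludarabine, where MIR17HG fell, 4 rose and 2 fell (median 0.27, against 0.06). In JVM2, where MIR17HG was not called, 7 rose and 2 fell with fludarabine (median 0.37). With DMSO, 8 of the 12 were lower and 2 higher in MEC1 than in JVM2 (median −0.64, against −0.02 over all genes). Against EHEB, 8 were lower and 1 higher in MEC1 (median −0.86, against −0.05). Among all genes, 33.7% were lower and 30.1% higher in MEC1 than in JVM2, and 35.8% and 31.6% than in EHEB. TNFAIP3, an inhibitor of NF-kB, fell with both inhibitors in MEC1 (−0.50 and −0.996) and rose in the other 6 comparisons in which it was called. STAT3, a cytokine-responsive factor, fell with both inhibitors in MEC1 (−0.55 and −1.01) and rose with both in JVM2 (0.41 and 0.70). E2F1 fell in 5 of 9 comparisons and rose in 1, and 2 of the falls were those with the inhibitors in MEC1 (−1.38 and −1.62).

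DLEU1, the plus-strand gene of 13q14, was highest in JVM2. With DMSO it was at 3.50, 4.09 and 2.88 CPM in MEC1, at 8.39, 9.51 and 8.32 CPM in JVM2 and at 4.99, 5.06 and 5.35 CPM in EHEB. The lines did not overlap, and each pair differed: MEC1 was 2.52-fold below JVM2 (edgeR adjusted p = 4.5e-05) and 1.498-fold below EHEB (edgeR adjusted p = 0.0066), and EHEB was 1.68-fold below JVM2 (edgeR adjusted p = 0.0018).

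Fludarabine brought DLEU1 to 1.95, 2.44 and 2.40 CPM in MEC1, to 4.44, 4.98 and 4.61 CPM in JVM2 and to 2.04, 2.96 and 2.45 CPM in EHEB. Every fludarabine library lay below every DMSO library of its line. The falls were 1.58-fold in MEC1 (edgeR adjusted p = 0.022), 1.85-fold in JVM2 (edgeR adjusted p = 1.0e-05) and 2.05-fold in EHEB (edgeR adjusted p = 0.00042), and they were not shown to differ between the lines (interaction, edgeR adjusted p = 0.29). In MEC1 the call was lost without DMSO library B (−0.53, edgeR adjusted p = 0.082), without fludarabine library A (−0.56, edgeR adjusted p = 0.077) and without TMM factors (−0.41, edgeR adjusted p = 0.11). Idelalisib gave 5.98, 6.08 and 6.29 CPM in JVM2, all below DMSO (1.43-fold lower, edgeR adjusted p = 0.00062). It gave 2.88, 3.77 and 3.51 CPM in EHEB, also all below DMSO (1.52-fold lower, edgeR adjusted p = 0.013), a call lost without idelalisib library A (−0.49, edgeR adjusted p = 0.055). In MEC1 idelalisib gave 3.98, 3.29 and 4.59 CPM, which overlaps DMSO (log2 fold change 0.24, edgeR adjusted p = 0.33), and the idelalisib effect differed between the lines (interaction, edgeR adjusted p = 0.012). Ibrutinib gave no call of DLEU1 in any line, with log2 fold changes of 0.00 (MEC1), −0.14 (JVM2) and −0.24 (EHEB) whose 95% confidence intervals reached down to −0.44, −0.33 and −0.59.

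DLEU2, the minus-strand gene that carries miR-15a and miR-16, was not shown to differ between the lines with DMSO. It was at 4.30, 5.22 and 4.04 CPM in MEC1, at 3.59, 6.62 and 6.63 CPM in JVM2 and at 5.42, 5.06 and 5.94 CPM in EHEB, and without JVM2 library A MEC1 was called lower than JVM2 (−0.56, edgeR adjusted p = 0.014). In MEC1 it was at 7.03, 10.5 and 7.62 CPM with ibrutinib. It was at 9.97, 10.2 and 10.6 CPM with idelalisib. These libraries all lay above DMSO, by 1.91-fold (edgeR adjusted p = 0.0029) and 2.37-fold (edgeR adjusted p = 0.00034). In EHEB idelalisib gave 1.55, 4.18 and 2.67 CPM, all below DMSO (log2 fold change −0.96, edgeR adjusted p = 0.048). That call was fragile: it was lost without DMSO library A (edgeR adjusted p = 0.098), B (edgeR adjusted p = 0.082) or C (edgeR adjusted p = 0.12) and without idelalisib library A (−0.67, edgeR adjusted p = 0.14) or C (edgeR adjusted p = 0.13), in the fit of 6 libraries (edgeR adjusted p = 0.063) and with no filter on low counts (edgeR adjusted p = 0.064). The call was also lost without TMM factors (−0.86, edgeR adjusted p = 0.068). In JVM2 idelalisib gave 5.92, 2.90 and 2.62 CPM, and without library A, the highest, DLEU2 was called lower there (−1.02, edgeR adjusted p = 0.025). The effects on DLEU2 differed between the lines for ibrutinib (interaction, edgeR adjusted p = 0.017, not called in the joint fit at 0.066) and for idelalisib (edgeR adjusted p = 0.0032).

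The genes around DLEU1 and DLEU2 on 13q14 were described from a list of 21. 18 of them were tested in the comparison of the lines, and 15 of these were lower and 1 higher in MEC1 than in EHEB with DMSO (median −1.38, against −0.05 over all genes), and 11 lower and 2 higher than in JVM2 (median −1.06). RB1, the retinoblastoma tumour suppressor, was lower in MEC1 than in EHEB by 3.15 on the log2 scale, and RNASEH2B, a subunit of RNase H2, was higher by 1.46. With idelalisib in MEC1, 9 neighbours rose and 2 fell (median 0.38, against 0.08), and with fludarabine in MEC1 3 rose and 8 fell (median −0.24, against 0.06). In EHEB fludarabine raised 1 and lowered 8 (median −0.31). RB1 rose with all 3 drugs in MEC1 and JVM2 and fell with all 3 in EHEB, by 0.62 with fludarabine. FNDC3A, a membrane protein gene, fell in 7 of 9 comparisons. TRIM13, a ubiquitin ligase gene that shares exon bases with DLEU2 on the other strand, was at 9.82 CPM in MEC1, 41.7 in JVM2 and 66.8 in EHEB with DMSO (means of 3), and rose in MEC1 with ibrutinib (0.69) and idelalisib (1.14), as DLEU2 did. It also rose with all 3 drugs in JVM2 (0.32, 0.55 and 0.76), where DLEU2 was not called (−0.40, 0.20 and −0.57). SPRYD7 fell with fludarabine in MEC1 (−0.94) and rose with it in JVM2 (0.68) and EHEB (0.69). DLEU7 had 0 counts in 22 of the 36 libraries and at most 13, and was not tested.

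12 listed targets of miR-15a and miR-16 were tested in MEC1 and EHEB and 11 in JVM2. In MEC1, 0 rose and 7 fell with idelalisib (median −0.64, against 0.08 over all genes), and 2 rose and 4 fell with ibrutinib (median −0.07). In EHEB with idelalisib, where DLEU2 was called lower, 3 rose and 4 fell (median −0.10, against 0.01). CHEK1, a checkpoint kinase, fell with idelalisib in all 3 lines, by 1.19, 1.06 and 1.18 on the log2 scale. CCND2, a G1 cyclin, fell with idelalisib in all 3 lines too (by 0.69, 0.56 and 1.36), while with fludarabine it rose in MEC1 (1.57) and JVM2 (0.31). CDK6, the kinase partner of these cyclins, fell with all 3 drugs in MEC1 and rose with both inhibitors in JVM2. CCND1, another G1 cyclin, rose with fludarabine in MEC1 (0.67) and EHEB (0.61). It fell with idelalisib in MEC1 (−0.72) and with all 3 drugs in JVM2 (−1.35, −0.19 and −0.13).

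PVT1, the neighbour of MYC, took opposite directions in MEC1 and JVM2 with the kinase inhibitors, and was called lower in both lines with fludarabine. With DMSO it was at 16.1, 17.1 and 17.6 CPM in MEC1, at 42.6, 42.7 and 46.96 CPM in JVM2 and at 24.0, 24.5 and 27.0 CPM in EHEB. No pair of lines overlapped, and JVM2 was highest. MEC1 was 2.63-fold below JVM2 (edgeR adjusted p = 4.3e-07) and 1.52-fold below EHEB (edgeR adjusted p = 9.9e-05), and EHEB was 1.73-fold below JVM2 (edgeR adjusted p = 2.3e-05).

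In MEC1, ibrutinib gave 22.8, 35.97 and 21.9 CPM of PVT1. Idelalisib gave 31.9, 35.1 and 31.5 CPM. All 6 lay above DMSO, with rises of 1.65-fold (edgeR adjusted p = 0.0054) and 2.02-fold (edgeR adjusted p = 0.00045), and ibrutinib library B was well above the other pair: without it the ibrutinib rise was 0.42 on the log2 scale (edgeR adjusted p = 0.0031), from 0.72. In JVM2, ibrutinib gave 22.1, 24.8 and 23.0 CPM and idelalisib 28.7, 29.4 and 28.6 CPM. These lay below every DMSO library, by 1.90-fold (edgeR adjusted p = 5.8e-06) and 1.53-fold (edgeR adjusted p = 2.6e-05). In EHEB none of the drugs gave a call, with log2 fold changes of −0.05, 0.09 and 0.18 and 95% confidence intervals within −0.33 to 0.45. The interaction with line was called for ibrutinib (edgeR adjusted p = 0.00019) and idelalisib (edgeR adjusted p = 1.6e-07).

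With fludarabine PVT1 was at 30.7, 33.1 and 32.4 CPM in JVM2, all below DMSO (1.36-fold lower, edgeR adjusted p = 0.00019), with a log2 fold change of −0.45, or −0.25 without TMM factors (edgeR adjusted p = 0.010). In MEC1 it was at 11.6, 11.8 and 13.1 CPM, also all below DMSO (1.42-fold lower, edgeR adjusted p = 0.037). The MEC1 call rested on every library: the edgeR adjusted p was 0.055, 0.075 and 0.087 without DMSO library A, B or C and 0.096, 0.091 and 0.051 without fludarabine library A, B or C. It was also not called without TMM factors (−0.26, edgeR adjusted p = 0.26), by limma-voom (limma adjusted p = 0.074) or under the stricter filter (edgeR adjusted p = 0.091). The fludarabine interaction of PVT1 (edgeR adjusted p = 0.019) was lost without EHEB fludarabine library B (edgeR adjusted p = 0.065), without TMM factors (edgeR adjusted p = 0.067) and in the joint fit (edgeR adjusted p = 0.12).

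MYC was not called in any of the 9 comparisons. It stood at 8.68 CPM in MEC1 idelalisib library C, 10.8 CPM in MEC1 DMSO library B and 9.98 CPM in JVM2 DMSO library C. The other libraries of those groups held 143.2 and 150.5, 203.9 and 163, and 88.4 and 109 CPM. These 3 low values are part of the MEC1 and JVM2 comparisons of MYC, and their cause was not tested. PVT1 in them was at 31.5, 17.1 and 46.96 CPM, near its replicates.

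NEAT1, the paraspeckle scaffold, was called in JVM2 only, and its libraries spread widely. In JVM2 with DMSO it was at 113, 126 and 192.3 CPM. Ibrutinib gave 41.4, 45.1 and 54.4 CPM, all below DMSO (3.08-fold lower, edgeR adjusted p = 0.0031). Fludarabine gave 305, 168 and 398 CPM, of which 1 lies within the DMSO range (2.04-fold higher, edgeR adjusted p = 0.019). The fludarabine call was lost without DMSO library A (0.88, edgeR adjusted p = 0.070) or B (0.94, edgeR adjusted p = 0.065) or fludarabine library C (0.73, edgeR adjusted p = 0.087). Idelalisib gave 111, 68.8 and 73.7 CPM (log2 fold change −0.77, edgeR adjusted p = 0.067), and without idelalisib library A this fall was called (−1.01, edgeR adjusted p = 0.038), as it was by DESeq2 (DESeq2 adjusted p = 0.022), in the fit of 6 libraries (edgeR adjusted p = 0.0497) and in the joint fit (edgeR adjusted p = 0.048).

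In MEC1 NEAT1 was at 81.9 to 98.0 CPM with DMSO and 71.2 to 131 CPM with the drugs. In EHEB DMSO libraries alone ran from 82.5 to 201 CPM, as wide as the drug libraries at 87.5 to 195 CPM. None of these 6 comparisons was called by the fit of 12 libraries, while the fit of 6 called idelalisib in MEC1 (0.39, edgeR adjusted p = 0.043). For ibrutinib in EHEB the 95% confidence interval was −0.64 to 0.72. The ibrutinib effect on NEAT1 differed between lines (interaction, edgeR adjusted p = 0.010). Those of the other drugs were not called in all 18 libraries, but that of fludarabine was without JVM2 fludarabine library B (1.29, edgeR adjusted p = 0.043), and that of idelalisib was without EHEB DMSO library B (edgeR adjusted p = 0.027) or C (edgeR adjusted p = 0.028) or JVM2 idelalisib library A (1.34, edgeR adjusted p = 0.037), under the stricter filter (1.22, edgeR adjusted p = 0.038) and by DESeq2 (1.11, DESeq2 adjusted p = 0.032). With DMSO every MEC1 library lay below every JVM2 library, with a log2 difference of −0.73 that was not called in the fit of 9 libraries (edgeR adjusted p = 0.067). It was called by DESeq2 (DESeq2 adjusted p = 0.021), in the fit of 6 libraries (edgeR adjusted p = 0.016) and in the joint fit (edgeR adjusted p = 0.043). MEC1 overlapped EHEB (−0.69, edgeR adjusted p = 0.075), a difference called by DESeq2 (DESeq2 adjusted p = 0.024) and without EHEB library B (−0.96, edgeR adjusted p = 0.011).

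The 16 listed paraspeckle proteins were all tested. In JVM2, 0 rose and 6 fell with fludarabine (median −0.23, against 0.06 over all genes), and 5 rose and 1 fell with ibrutinib (median 0.15, against 0.00). SFPQ, a core paraspeckle protein, rose with ibrutinib in all 3 lines (1.07, 0.91 and 0.43). HNRNPA1, a splicing repressor, fell in 8 of 9, most with fludarabine in MEC1 (−1.45) and JVM2 (−1.04). HNRNPH3, an RNA-binding protein, fell with fludarabine in MEC1 (−0.44) and JVM2 (−0.78).

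MALAT1, the speckle RNA, was the most abundant member by count. With DMSO it was at 859, 1221 and 1415 CPM in MEC1, at 793, 980 and 786 CPM in JVM2 and at 1208, 1310 and 1804 CPM in EHEB. EHEB lay above JVM2 without overlap (1.71-fold, edgeR adjusted p = 0.0098), and MEC1 overlapped both EHEB and JVM2. MEC1 against JVM2 gave a log2 difference of 0.44 (edgeR adjusted p = 0.089), which was called without MEC1 library A (0.61, edgeR adjusted p = 0.018) and without TMM factors (0.58, edgeR adjusted p = 0.035).

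In EHEB all 3 drugs raised MALAT1. Fludarabine gave 2536, 2523 and 3417 CPM. Ibrutinib gave 4139, 6555 and 2695 CPM, and idelalisib 3989, 3983 and 5061 CPM. All 9 lay above the DMSO libraries, with the ibrutinib libraries the most spread. The rises were 1.98-fold with fludarabine (edgeR adjusted p = 0.016), 3.10-fold with ibrutinib (edgeR adjusted p = 0.0023) and 2.999-fold with idelalisib (edgeR adjusted p = 0.0013). The fludarabine call was lost without DMSO library A (0.86, edgeR adjusted p = 0.065) or B (0.91, edgeR adjusted p = 0.059) or fludarabine library C (0.82, edgeR adjusted p = 0.066). In MEC1 idelalisib gave 2003, 1611 and 1293 CPM, which overlaps DMSO (log2 fold change 0.55, edgeR adjusted p = 0.046). This call was lost without DMSO library A (0.37, edgeR adjusted p = 0.17) or B (0.58, edgeR adjusted p = 0.080) or idelalisib library A (0.36, edgeR adjusted p = 0.20) or B (0.56, edgeR adjusted p = 0.087), without TMM factors (0.46, edgeR adjusted p = 0.098), with no filter (edgeR adjusted p = 0.072), in the fit of 6 libraries (edgeR adjusted p = 0.067) and in the joint fit (edgeR adjusted p = 0.13). In JVM2 idelalisib gave 1571, 1157 and 1039 CPM, all above DMSO but not called (0.55, edgeR adjusted p = 0.069), whereas it was called without TMM factors (0.65, edgeR adjusted p = 0.044), by DESeq2 (DESeq2 adjusted p = 0.028) and in the fit of 6 libraries (edgeR adjusted p = 0.034).

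The drug effect on MALAT1 differed between lines for fludarabine (interaction, edgeR adjusted p = 0.023), ibrutinib (edgeR adjusted p = 0.020) and idelalisib (edgeR adjusted p = 0.012). The fludarabine difference was lost without EHEB DMSO library A (1.09, edgeR adjusted p = 0.053), EHEB fludarabine library C (1.02, edgeR adjusted p = 0.066) or MEC1 DMSO library C (1.02, edgeR adjusted p = 0.051). The ibrutinib difference was lost without EHEB DMSO library A (1.29, edgeR adjusted p = 0.060) or B (1.34, edgeR adjusted p = 0.055) or ibrutinib library B (1.01, edgeR adjusted p = 0.068).

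The mitochondrial share of counts was highest in EHEB, the line in which MALAT1 rose most. It was 1.26 to 1.65% with DMSO, 2.26 to 2.65% with fludarabine, 1.65 to 2.30% with ibrutinib and 1.44 to 2.02% with idelalisib. The part of this share in the MALAT1 result was not tested. MALAT1 itself made up 0.112 to 0.169% of the counts of EHEB with DMSO and 0.252 to 0.677% with the drugs.

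**Figure D3:**
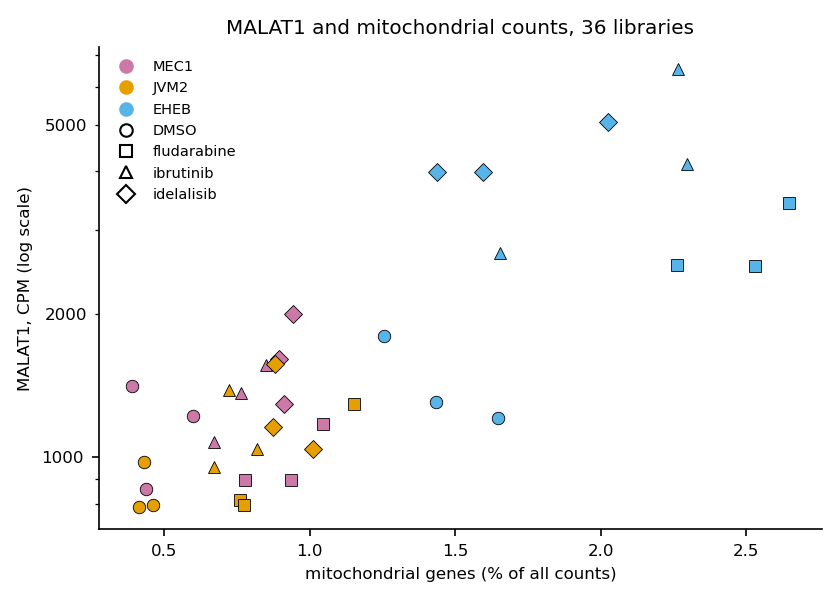
MALAT1 level in CPM (log axis) against the percentage of counts from mitochondrial genes in each of the 36 libraries, coloured by line with a marker per treatment. EHEB libraries lie to the right. Those with drugs, at 2523 to 6555 CPM, also lie above all MEC1 and JVM2 libraries, which reach 2003 CPM at most. EHEB libraries with DMSO, at 1208 to 1804 CPM, lie within the range of the other lines.

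Among the 16 listed nuclear speckle proteins and MALAT1 binders, 3 rose and 1 fell with ibrutinib in EHEB (median 0.18, against 0.01 over all genes) and 6 rose and 3 fell with idelalisib (median 0.11, against 0.01). In MEC1, 9 rose and 4 fell with ibrutinib (median 0.31) and 8 rose and 5 fell with idelalisib (median 0.36). MALAT1 in MEC1 was not called with ibrutinib (log2 fold change 0.24), and its call with idelalisib (0.55) was lost in several of the fits above. LUC7L3, a splicing factor gene, rose in 6 of 9 comparisons, by 0.55 on the log2 scale with idelalisib in EHEB and 1.23 in JVM2. SRSF5, a serine-rich splicing factor, rose in 6, and U2AF2, which reads the splice acceptor, rose in 6 and fell in 1. SRRM1, a speckle matrix protein, fell in 8 of 9, by 0.19 to 0.83.

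Levels of the 7 genes can be set beside each other only per length, as CPM per kilobase of annotated exon, which reads low for genes with many isoforms. On this scale and with DMSO, MALAT1 had 112, 81.7 and 138 CPM per kb in MEC1, JVM2 and EHEB (means of 3), and MIR155HG 13.6, 51.7 and 162. In EHEB these overlapped between libraries, whereas in MEC1 and JVM2 MALAT1 was above MIR155HG in every library. NEAT1 followed with 3.84, 6.31 and 6.09 CPM per kb, and PVT1 with 0.665, 1.73 and 0.989. The 3 lowest were MIR17HG (0.587, 0.268 and 0.110), DLEU2 (0.353, 0.439 and 0.428) and DLEU1 (0.145, 0.364 and 0.214). By the mean, MIR17HG led these 3 in MEC1 and was last in JVM2 and EHEB. In JVM2 the DLEU2 libraries overlapped those of both DLEU1 and MIR17HG.

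**Figure D4:**
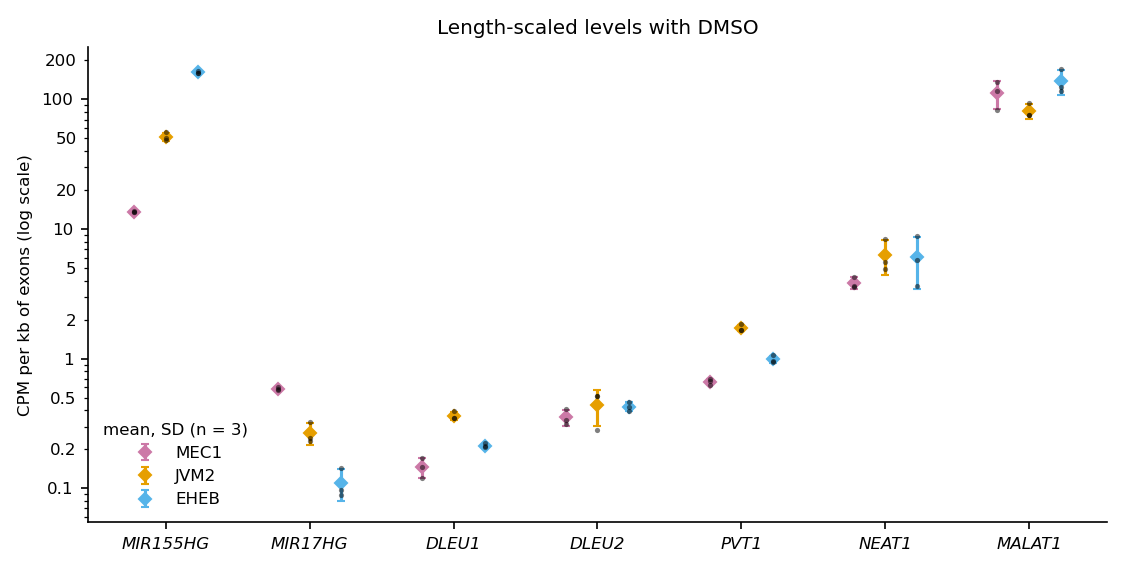
Level per kilobase of annotated exon (CPM per kb, log axis) of the 7 genes in the DMSO libraries of the 3 lines; a diamond is the mean of 3 libraries with its SD and a dot is 1 library. MIR155HG climbs from 13.6 in MEC1 to 162 in EHEB and MIR17HG drops from 0.587 to 0.110.

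Other host genes and long noncoding RNAs were described from lists. Of 30 further microRNA host genes 25 were in the table and 18 or 19 passed the filter. In MEC1, 8 rose and 3 fell with ibrutinib (median 1.06, against 0.06 over all genes) and 8 rose and 2 fell with idelalisib (median 1.04, against 0.08), whereas in EHEB 0 rose and 1 fell with ibrutinib (median 0.18). MIR29B2CHG, host of miR-29b and miR-29c, rose in 5 of 9 comparisons, by 1.51 and 1.82 on the log2 scale with ibrutinib and idelalisib in MEC1. MIR193BHG, host of miR-193b, rose with both inhibitors in MEC1 (1.46 and 1.16) and JVM2 (0.68 and 1.02), and fell with fludarabine in JVM2 (−0.97). MIR210HG, host of the hypoxia microRNA miR-210, fell with all 3 drugs in EHEB (−3.77, −3.39 and −3.08). It also fell with fludarabine in MEC1 (−0.64) and JVM2 (−1.88). In EHEB its mean was 7.10 CPM with DMSO (SD 3.70) and 0.512, 0.683 and 0.853 CPM with the drugs. MIR663AHG fell with all 3 drugs in MEC1 (−0.94, −3.46 and −3.30) and in JVM2. Of 20 other long noncoding RNAs, 16 were tested in MEC1, of which 6 rose and 1 fell with each inhibitor (medians 0.18 and 0.25). FTX, a noncoding gene of the X-inactivation centre, rose in 7 of 9 comparisons, TUG1 in 5, and CYTOR fell in 6, by 1.95 with idelalisib in JVM2. TP53TG1, which p53 induces, rose in 2 and fell in 3 of 9 comparisons. With fludarabine it rose in JVM2 and EHEB (0.63 in each) and fell in MEC1 (−0.48).

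The genes whose log2 CPM ran most alike over the 36 libraries, among those with a mean of at least 1 CPM, were found for each member as a description. The points share lines and treatments, and nothing is drawn from these values. For MIR155HG they were CASD1 (Pearson r = 0.94), SASH3 (0.94) and SP100 (0.93), and for MIR17HG SNORA5C (0.95), TIMD4 (0.94) and GRAMD4P8 (0.93). DLEU1 ran most like FBXL4, RPS4X and MORF4L1P1 (0.88 each) and PVT1 like GINM1 (0.84), EIF4A2 (0.83) and SNORA25 (0.83). For MALAT1 the mitochondrial genes MT-ND6 (0.87) and MT-ATP8 (0.86) were among the 3 most alike. The likeness was weaker for DLEU2, with HIF1A-AS2 (0.76), IFNA2 (0.73) and HIST2H2AC (0.72), and for NEAT1, with CCNL1 (0.71) and IRF1 (0.70) among its 3.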

How the data were processed

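RNA from 36 libraries (12 groups of 3) was sequenced after rRNA depletion. Per the labels and the study's methods, the authors trimmed reads with Trimmomatic, aligned them to GRCh38 with HISAT2 2.1 and made a count matrix with StringTie 1.3.4 on the Ensembl annotation; edgeR 3.22.5 is also named in the submitters' processing notes. The deposited values are estimated counts in whole numbers. StringTie derives them from coverage and a read length, so they may differ from read numbers by a constant. Strand, read length and Ensembl release: not given in the sources used here. Depth was 26590705 to 53538925 counts per library. 1 entry with a blank symbol (0.003 to 0.005% of counts) was left out.

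Counts were fitted per line (12 libraries) in edgeR 4.0.16 (R 4.3.3) with TMM scaling, filterByExpr (at least 10 counts, 15 in total), the quasi-likelihood F-test and Benjamini-Hochberg adjustment over all genes tested, called at 0.05. Confidence intervals use the t quantile at the degrees of freedom of that test. Lines were compared on the 9 DMSO libraries, and drug effects between lines by interaction on 18 libraries. Levels are CPM with TMM factors of all 36 libraries. Alternatives were DESeq2 1.42.0, limma-voom (limma 3.58.1), no TMM, no filter, a mean of at least 5 CPM, a fit of 6 libraries, a joint fit of 36 and leaving out each library. Scripts were tested on simulated data. Figures were drawn with Python 3.11.15 and matplotlib 3.10.9.

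The members and lists were chosen with earlier results of these data known. All members are named, with MYC, TRIM13, DLEU7, SPRYD7 and RNASEH2B, and from each list at most 4 further genes, those called in most of the 9 drug comparisons. Some genes that this rule names are not reported here. Gene models are GENCODE release 44, and microRNA and promoter sequences RefSeq (GRCh38.p14).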

Additional observations from a re-analysis of the deposited data

Results flagged for a closer look

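In the test of drug effects between lines, 14 of 21 effects on the 7 genes differed (edgeR interaction test on 18 libraries, adjusted p under 0.05). They were 2 of 7 with fludarabine, below the 39.1% of all genes, and 6 of 7 with each inhibitor, beside 33.6% of all genes for ibrutinib and 45.7% for idelalisib. The size given is the highest minus the lowest log2 fold change of the 3 lines in the fit of 18 libraries, which can differ from the values of the fits within a line. MIR155HG had the widest spread with both inhibitors, 2.64 with ibrutinib (highest in MEC1, lowest in EHEB) and 2.88 with idelalisib (same order). PVT1 spread by 1.62 with ibrutinib and 1.57 with idelalisib, with MEC1 highest and JVM2 lowest, and by 0.38 with fludarabine. MIR17HG spread by 1.49 with ibrutinib and 1.10 with idelalisib, each highest in MEC1 and lowest in JVM2. DLEU2 spread by 1.37 with ibrutinib and 2.15 with idelalisib, from MEC1 down to EHEB, and DLEU1 by 0.80 with idelalisib, in the same order. MALAT1 spread by 1.18 with fludarabine, 1.39 with ibrutinib and 1.08 with idelalisib, each highest in EHEB and lowest in MEC1 (with idelalisib, JVM2 was 0.06 above MEC1). NEAT1 spread by 1.69 with ibrutinib, lowest in JVM2. Each line had its own exposure time, so that time may be part of any of these and cannot be told apart from the line.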

How the results depend on the processing

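No paired analysis was possible because the groups share no replicate numbers. No called change of a member turned its direction under any alternative. Among the counts of members called, fludarabine in MEC1 went from 4 to 2 without TMM and under the stricter filter, idelalisib in EHEB from 4 to 2 under both (that filter drops DLEU1 in MEC1 and DLEU1 and DLEU2 in EHEB), idelalisib in JVM2 from 3 to 5 with DESeq2 and in the fit of 6 libraries, and idelalisib against ibrutinib in JVM2 from 3 to 1 in the joint fit. The count of fludarabine interactions went from 2 to 1 without TMM. Leaving out 1 library gave 2 or 3 members for fludarabine in MEC1 (2 without DMSO library B or fludarabine library A), as the PVT1 call was lost in each of these fits. The same step gave 1 to 2 for idelalisib against ibrutinib in MEC1 (2 without ibrutinib library B), 3 to 5 for idelalisib in JVM2 (5 without idelalisib library A), 2 to 4 for idelalisib in EHEB (2 without idelalisib library A) and 1 to 3 for the fludarabine interaction (1 without MEC1 DMSO library C, EHEB DMSO library A or EHEB fludarabine library B or C). Of single genes, 33 calls were lost and 15 gained over the fits with a library left out, and 960 kept their side of the threshold. The cause was not tested, apart from genes dropped by the filter. MIR17HG in EHEB had 27 to 90 counts; the part of depth in its wide intervals was not tested.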
